A study of Homo sapiens with 24 samples.

Results

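The response of protein-coding and other catalog genes of MRC5 cells to oxidative stress (OS) was measured in whole-cell RNA, by comparing the 3 arrays of total RNA from peroxide-treated cells with the 3 arrays of total RNA from control cells. MRC5 is a fibroblast line from normal human lung. The OS cells had received 0.2 mM hydrogen peroxide for 2 hours, and the control cells had received none. The series holds 24 arrays in 8 groups of 3. The other 6 groups are pools of polysome fractions, which served only for the joint normalization, the removal of outlier probes and the estimate of the spread. Catalog probes, whose names begin with A_, make up 17535 of the 61537 probes of the custom Agilent array and were designed against known genes, whereas the other probes target long non-coding RNAs. Of the catalog probes, 10641 were tested, standing for 9251 genes, because they were well above background on every measured array of at least 1 of both groups.

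Hydrogen peroxide oxidizes thiols in proteins and damages DNA. Cells answer it with mitogen-activated protein kinase signalling, which switches on immediate early transcription factors within minutes without new protein synthesis, and with slower programs driven by NRF2, ATF4 and the heat shock factors. Because immediate early mRNAs are short-lived and peroxide is consumed by the cells, a sample at a single time point captures only a part of this sequence.

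Of the 6 arrays, OS replicate 2 had the greatest depth of detection, with 67.8% of the catalog probes well above background. The other arrays had between 60% and 61.7%. The Pearson correlation of log2 levels between replicates, over detected catalog probes outside the damaged region, ran from 0.9829 to 0.9973. Control replicate 1 had a damaged region at its low-numbered columns (1 to 41), where 23.2% of 2439 probes detected on nearly all total RNA arrays lay more than 1.5 below the higher of the other control arrays on the log2 scale, against 0.024% of 16651 such probes elsewhere on that array. The spots of this region were treated as missing on this array, so that 1307 tested probes rest on 2 control arrays. A smaller area of low signal was seen on control replicate 3, with 7.85% of 1274 such probes lowered. All 5 fibroblast markers with a catalog probe (COL1A1, COL3A1, LUM, P4HB and THY1) were well above background on every measured array, and the summed level of those outside the damaged region was 17.67 to 17.80 in control and 17.64 to 17.76 in OS on the log2 scale. Of the 7 epithelial, 4 endothelial and 4 leukocyte marker probes, 3, 1 and 2 were well above background on every array. KRT5, SFTPB, VWF, KDR, CLDN5 and the leukocyte marker PTPRC were above it on none. The summed epithelial markers were at 9.48 to 9.84 in control and 10.44 to 10.97 in OS, and the summed leukocyte markers at 10.28 to 10.47 and 10.84 to 11.13. CLDN4 and CD79A, the brightest of these, had log2 differences of 1.26 and 0.65 that did not pass the test (adjusted p = 0.185 and 0.0881, limma).

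OS was followed by changes in both directions. In total, 339 catalog probes (332 genes) were higher and 277 (269 genes) were lower than in control cells at an adjusted p under 0.05 from limma, which is 3.19% and 2.60% of the 10641 probes tested. The median change of all tested probes was 0.00 on the log2 scale. Without normalization this median moved to -0.29, and with scaling to the 75th percentile to -0.18. The split between directions moved with the processing, with 227 higher and 976 lower probes without normalization. Normexp background correction together with quantile normalization over all probes gave 318 higher and 394 lower, and that normalization alone 285 and 269. The counts also depended on the arrays in the normalization and fit. One array of another group, the third of the low polysome pool upon OS, had 95.4% of its catalog probes well above background, and without it 652 probes were higher and 729 lower. A fit of the 6 total RNA arrays alone gave 1134 and 1548. Every one of the 616 called probes changed in the same direction on each slide where it was measured (each slide holds 1 control and 1 OS array of total RNA). The calls rest on these same arrays, so this agreement and a lack of overlap between the groups largely follow from the calls. They add no separate support, and their share among all tested probes was not determined. A bulk measurement cannot tell a change in every cell from a change in some of the cells.

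Increases were larger than decreases. The median size of the change was 1.64 on the log2 scale for higher probes and 0.78 for lower probes, and 230 of the higher probes rose at least 2-fold. A part of this difference comes from transcripts that were at background in control cells. Among the higher probes, 120 were not well above background on any control array, whereas 25 of the lower probes were not above it on any OS array. Among called probes well above background on every array, the medians were 0.93 for 196 higher and 0.70 for 220 lower probes. The plot of level against change shows that the largest increases lie among probes of low mean level and that the lower probes spread over a wide range of levels.

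**Figure D1:**
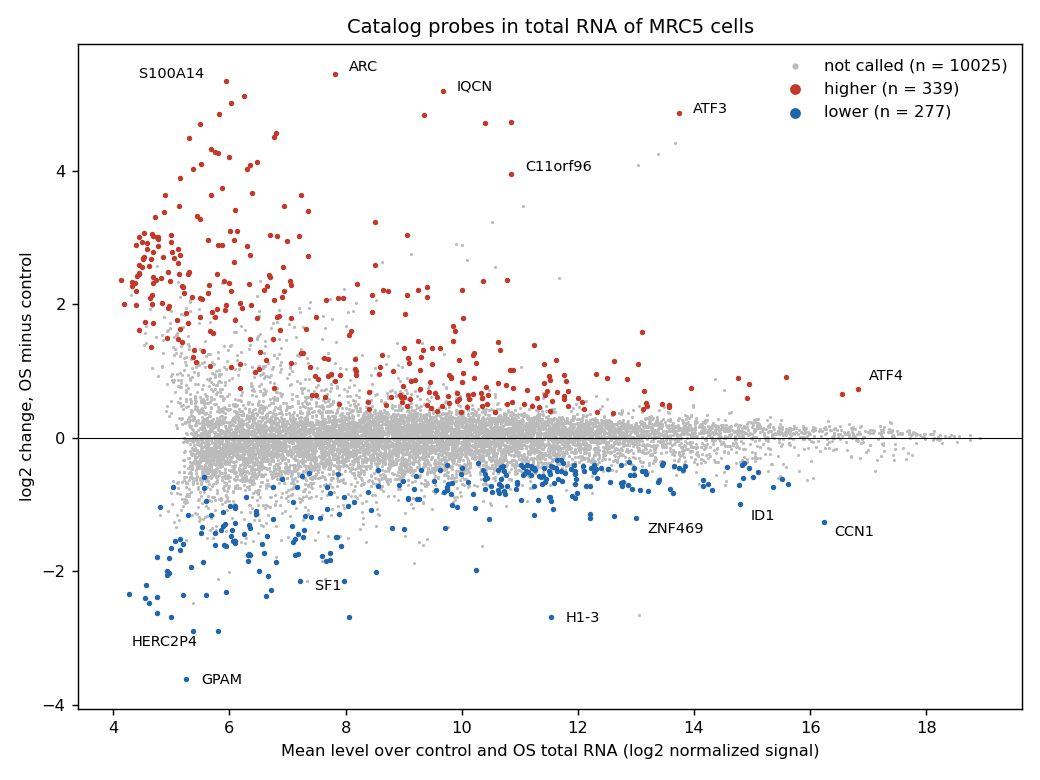
Mean level over both groups (x axis, log2 normalized signal) and log2 change between OS and control (y axis) for each of the 10641 catalog probes tested in total RNA, with probes called higher (339) in red, called lower (277) in blue and the rest in grey. ATF3 and C11orf96 combine a large increase with a high level, whereas most of the strongest increases lie at low levels.

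Among the process lists, which were chosen with earlier results of these data known, that of immediate early transcription factors had the highest median change. Of 25 probes tested for this list, 17 (15 of 20 genes) were higher and none was lower, and the list median was 1.15 on the log2 scale against 0.00 for all catalog probes. The counts of this and the later lists stand beside 3.19% higher and 2.60% lower among all tested catalog probes. ATF3, a basic leucine zipper factor of the CREB family that is induced by many stresses, is covered by 4 probes. The probe A_23_P34915 near its 3′ end (chr1:212793856-212793915, GRCh37) read 11.59, 11.21 and 11.11 in control replicates 1 to 3 and 16.20, 16.24 and 16.05 in OS. All OS arrays were thus far above all control arrays. The change was 4.86 (SE 0.22, adjusted p = 4.32e-11, limma), or 29-fold. The probes A_24_P33895 and A_33_P3214105 gave 4.83 and 4.73, while A_33_P3214096 gave 0.70 and did not pass the test (adjusted p = 0.262), so that the 4 probes of the gene do not give the same answer.

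ARC, which encodes an activity-regulated cytoskeletal protein best known from synapses and was placed in the same list, rose from a level near background. Its level was 5.24, 4.43 and 5.59 in control and 10.73, 9.94 and 10.93 in OS, although it was well above background on only 1 control array (change 5.45, SE 0.51, adjusted p = 7.03e-07). NR4A3, an orphan nuclear receptor, read 8.10, 8.22 and 8.10 in control and 10.23, 10.67 and 10.19 in OS (change 2.22, SE 0.21). KLF4, a zinc finger factor, rose from 7.04 to 9.35 on average, and EGR3, a relative of EGR1, from background on every control array to 5.91, 5.75 and 6.47. The groups did not overlap for any of them. JUNB and JUND, subunits of the AP-1 factor, rose by 1.35 and 0.78. ZFP36, an RNA-binding protein that speeds the decay of cytokine mRNAs, rose by 1.15, and BTG2, an antiproliferative factor, by 1.39 (adjusted p = 2e-06).

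EGR1, the best known serum-responsive factor of this class, did not pass the test. It read 14.61, 13.69 and 13.46 in control and 14.68, 14.84 and 14.90 in OS (change 0.89, SE 0.30, adjusted p = 0.0874). Control replicate 1 stood close to the OS arrays and apart from the other controls. FOSL1, MAFK, CSRNP1 and ZFP36L1 were not called either. FOS, FOSB, JUN and MYC were not analysed here, since no catalog probe in the files used carried these names.

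**Figure D2:**
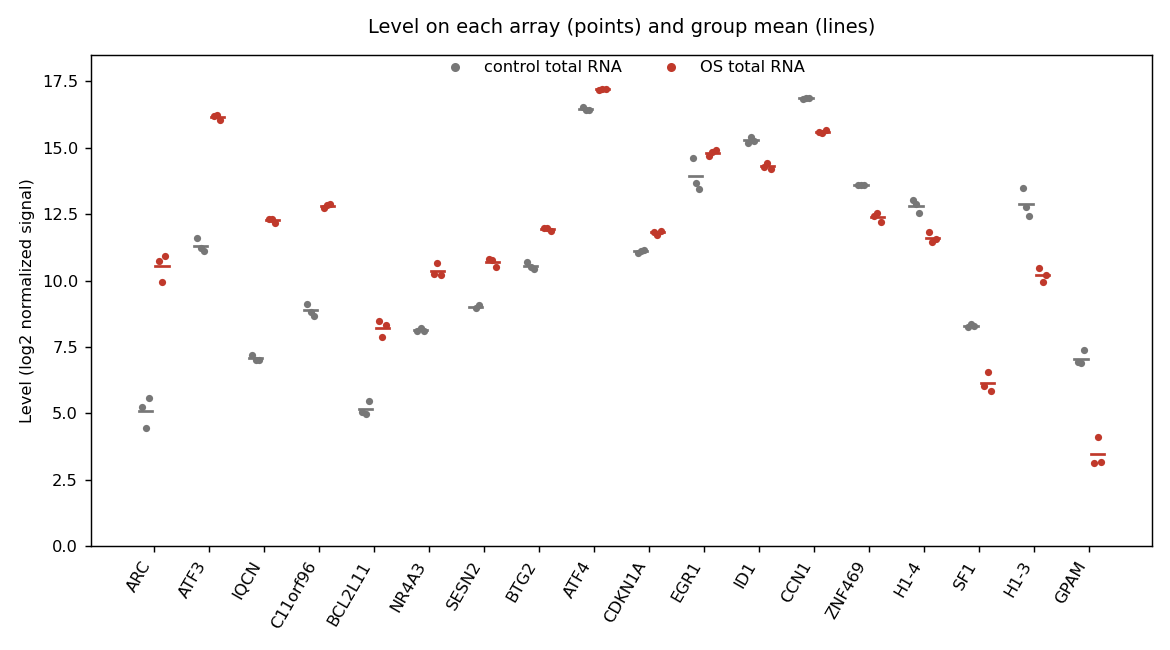
Level of 18 named genes on each of the 3 control (grey) and 3 OS (red) arrays of total RNA (points, log2 normalized signal) with group means (lines), 1 probe per gene. SESN2 has 2 control points because its spot lies in the damaged region, and EGR1 shows control replicate 1 beside the OS arrays.

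Among the feedback regulators of MAP kinase signalling, 4 of 9 probes tested were higher and none was lower, with a list median of 0.79. SPRY2, an inhibitor of receptor tyrosine kinase signalling, read 12.48, 12.19 and 12.25 in control and 13.85, 14.06 and 13.75 in OS (change 1.58, SE 0.16, adjusted p = 1.54e-06). GADD45G, a stress sensor upstream of p38 and JNK, rose by 2.14 on 1 probe, while its other probe gave 1.58 and did not pass the test (adjusted p = 0.148). The phosphatases DUSP5 and DUSP8 rose by 0.83 and 0.62. DUSP3, DUSP4 and DUSP14 gave differences between 0.05 and 0.17 that were not called.

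SESN2, a regulator of mTORC1 that belongs to the integrated stress response list, read 8.97 and 9.06 in control replicates 2 and 3 and 10.81, 10.78 and 10.50 in OS (change 1.68, SE 0.19). CDKN1A, the p21 inhibitor of cyclin-dependent kinases, read 11.03, 11.13 and 11.16 in control and 11.84, 11.72 and 11.87 in OS. Its change of 0.70 (SE 0.17, adjusted p = 0.0116) was well below that of SESN2 in size, though the groups did not overlap. PPM1D, a phosphatase of the DNA damage response, rose by 0.83, and TRIAP1, an inhibitor of apoptosis, by 0.46. Both probes of MDM2, a ubiquitin ligase, gave small positive differences (0.31 and 0.42) that did not pass the test, with adjusted p = 0.734 and 0.694 (0.0444 and 0.0271 in a limma fit of the 6 total RNA arrays alone). In the integrated stress response list, 4 of 14 probes were higher. ATF4, its central transcription factor, rose by 0.73 from an already high level of 16.46 ± 0.07 (SD, n = 3) to 17.19 ± 0.02 (SD, n = 3), and SLC3A2, the heavy chain of amino acid transporters, and TRIB3, a pseudokinase, rose by 0.90 and 0.75. The aminoacyl-tRNA synthetases AARS1, CARS1 and GARS1 and the asparagine synthetase ASNS, also targets of ATF4, gave 0.11 to 0.27 and were not called.

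None of 25 probes of antioxidant enzymes was called in either direction (in the fit of the 6 arrays, 3 were higher and 1 lower). At the shares of all tested catalog probes (3.19% higher and 2.60% lower), a list of this size would hold few calls. The list median was 0.11, and the differences ran from -1.21 to 0.32. The lowest belongs to GPX2, a glutathione peroxidase, which read 6.07, 6.23 and 5.99 in control and 5.49, 5.78 and 3.40 in OS (adjusted p = 0.0816), so that OS replicate 3 stood apart. SOD1, which converts superoxide, read 16.15, 16.27 and 16.26 in control and 16.27, 16.44 and 16.52 in OS. SOD2, its mitochondrial counterpart, gave 0.32 (adjusted p = 0.378), and PRDX5 gave 0.19. Among 14 probes for targets of NRF2, the factor that activates antioxidant genes, 2 were higher. These were the transporter ABCC2, which rose by 2.64 from a level above background on 1 of 3 control arrays, and OSGIN1, a growth inhibitor induced by oxidative stress, which rose by 1.12 (SE 0.21, adjusted p = 0.00126). HMOX1, NQO1, GCLM, TXNRD1 and SRXN1, the most used reporters of NRF2, were not analysed here. A difference of 4.09 listed for TKT rests on a single spot of control replicate 3, which read 2.94 against 15.05 and 14.96 on the other control arrays, and it was not called. Heat shock proteins and their partners showed 2 of 20 probes higher, which were the small heat shock protein HSPB8 (change 0.76, adjusted p = 0.036) and its co-chaperone BAG3 (0.55, adjusted p = 0.0469). The stress-inducible HSPA6 gave 0.79 with wide spread in OS (7.31, 7.03 and 7.98) and was not called (adjusted p = 0.223). None of 7 metal response probes was called, MT1X among them (change 0.32, adjusted p = 0.151). In the fit of the 6 arrays alone 1 of them was higher. At the shares of all tested probes, a list as short as that of the metal response would hold hardly any call.

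Outside these lists, several of the most raised genes are known from other settings than the stress response of fibroblasts. IQCN (KIAA1683 on the array) read 7.20, 7.01 and 7.01 in control and 12.30, 12.33 and 12.17 in OS, which gave the lowest adjusted p among probes well above background on every array (1.08e-12, change 5.20, SE 0.18). A second IQCN probe, annotated to another transcript, did not pass the test (adjusted p = 0.767). C11orf96, a gene of unknown function, rose by 3.95 to 12.72, 12.86 and 12.88. VAMP8, a SNARE protein of endosomes, rose by 2.60, ISG20, an exonuclease induced by interferon, by 2.35, LAT2, an adaptor of immune receptors, by 3.04 and RGS16, which turns off G protein signalling, by 3.02. RNU4ATAC, the minor spliceosome RNA, is represented by a probe designed on an expressed sequence tag, which rose by 4.72. Whether this signal came from the small RNA itself was not tested. For MMP25, a membrane-type matrix metalloproteinase, 1 probe rose by 3.40, whereas the other did not pass the test (adjusted p = 0.919).

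For genes at background in control, only a lower bound of the increase can be given. HSH2D, an adaptor known from blood cells, was at least 15.6-fold higher in OS. FAM83E was at least 12.8-fold higher, and S100A14 and UBD, whose spots on control replicate 1 lie in the damaged region, were at least 11-fold and 10.4-fold higher on 2 control arrays. S100A14 is a calcium-binding protein of epithelia and UBD a ubiquitin-like modifier. These bounds set the OS level against the weakest signal that was still well above background on each control array. BCL2L11, which encodes the death-promoting protein BIM, was at least 8.06-fold higher on a probe above background on no control array (OS levels 8.46, 7.87 and 8.32), but its second probe did not pass the test (adjusted p = 0.998).

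The promoters of the raised genes were searched for known response elements, in windows from RefSeq (GRCh38.p14) that span 250 bases before to 50 after the start of each gene. Such a window was found for 190 higher genes, 185 lower genes and 6372 tested genes. An AP-1 site, TGAGTCA or its reverse complement TGACTCA, stood in 10% of the higher genes (19), 3.24% of the lower genes (6), 3.47% of the tested genes and 4.92% of all 27305 windows. The TATA box, TATAAA on the strand of the gene, stood in 9.47%, 7.57%, 4.21% and 7.71% of the same sets. The shares of the remaining elements are given for higher and then for tested genes. The cAMP response element TGACGTCA stood in 3.68% and 3.26%, the antioxidant response element (TGACNNNGCA on either strand) in 3.16% and 3.04%, and the NF-kappaB site (GGGANTTCC or GGGANTTTCC on either strand) in 2.63% and 2.75%. The metal response element, TGCACNC or TGCGCNC on either strand, stood in 38.4% and 38.2%. Letters of this kind occur often by themselves, and a match is not a measured site. Over all windows the shares were 1.98% for the cAMP response element, 3.26% for the antioxidant, 2.42% for the NF-kappaB and 29.3% for the metal response element. The serum response element (CCNNATATGG, CCATATNNGG or CCNTATTAGG on either strand) stood in 0 higher genes, 3 lower genes (1.62%), 0.314% of the tested genes and 0.425% of all windows. The heat shock element (GAANNTTCNNGAA or its reverse complement) stood in 2 higher genes (1.05%) and in 0.487% of the tested genes and of all windows. An antioxidant element can begin with the letters of an AP-1 site, so that a stretch may count for both.

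The windows below are examples from raised named genes that hold such a match, and they show that these genes hold different elements. They are not a full ranking by size of change. ARC, the most raised named gene, is not among them, and whether its window holds a match is not reported here. Capitals mark the match, lower case its neighbours, and all are written on the strand of the gene. For IQCN the AP-1 site begins 25 bases before the start, for UBD the NF-kappaB site 52 bases and for S100A14 the antioxidant element 228 bases before it. FAM83E, REM2 and BCL2L11 hold the common metal element.
IQCN, chr19:18274460-18274488, minus strand: gaacttggcttTGAGTCAcaaagctgctg
UBD, chr6:29559766-29559794, minus strand: atccaggcagGGGATTTCCaactcaactc
S100A14, chr1:153616534-153616563, minus strand: tctttctctgTGACTCTGCAtgctgatcgg
FAM83E, chr19:48615042-48615070, minus strand: cgggaagtgcaGGGTGCAggctggcaggg
BCL2L11, chr2:111120755-111120783, plus strand: ctgtccgagccTGCACGCgccggcggccg
REM2, chr14:22883244-22883271, plus strand: agctgctgggcTGCACACgcacacgcac

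Among the decreases, the histone genes stood out as a group. Replication-dependent histone mRNAs carry a stem-loop in place of a poly(A) tail and are abundant in S phase. The study's methods describe labelling from an oligo-dT primer, which binds poly(A) stretches. Which forms of the histone mRNAs gave the signal was not tested. Of 25 probes tested, 10 were lower and none was higher, and the list median was -0.51, with -0.66, -0.67 and -0.32 on slides 1 to 3. The linker histone H1-3 (HIST1H1D on the array, chr6:26234699-26234758, GRCh37) read 13.47, 12.77 and 12.42 in control and 10.49, 9.93 and 10.19 in OS. The change of -2.68 (SE 0.25, adjusted p = 6.33e-07) was the most negative among named genes well above background on every array. H1-4 and H3C15 (HIST2H3A) fell by 1.20 and 1.18. Copies of core histone genes are nearly identical, so that their probes may share signal and the affected copies are uncertain. The mitosis list also leaned downward, with 23 of 26 probes below 0 and a median of -0.33, but only ASPM, a spindle protein, was called (change -1.06, SE 0.29, adjusted p = 0.0296). CENPF gave -0.77 (adjusted p = 0.0514) and MKI67 gave -0.85 (adjusted p = 0.606). In the G1/S and replication list the median was 0.01 and CCNE1, the cyclin that drives entry into S phase, was the only probe called, with an increase of 0.58.

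Zinc finger protein genes of the ZNF family, most of which encode DNA-binding repressors, leaned downward as a family. Of 318 probes tested, 240 had a negative and 78 a positive difference, and the median was -0.25, with -0.30, -0.26 and -0.28 on the 3 slides. Only 17 were lower and 5 higher past the threshold, which is 5.35% and 1.57% of the probes against 2.60% and 3.19% of all catalog probes. In the fit of the 6 total RNA arrays, 118 were lower and 17 higher. ZNF469 read 13.61, 13.61 and 13.61 in control and 12.44, 12.56 and 12.21 in OS (change -1.21, SE 0.14, adjusted p = 6.8e-06). ZNF767P, a pseudogene transcript, and ZNF792 fell by 1.38 and 1.73, while ZNF75A, ZNF688 and ZNF596 rose by 0.53, 0.39 and 0.89. For ZNF596, ZNF75A and ZNF792 a second probe of the gene did not pass the test (adjusted p = 0.817, 1 and 0.222).

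TGF-beta and BMP target genes went in opposite directions. CCN1 (CYR61), a matrix-associated growth regulator and YAP target, read 16.83, 16.87 and 16.88 in control and 15.59, 15.54 and 15.68 in OS, a drop to a narrow and separate range (change -1.26, SE 0.20, adjusted p = 0.000368). ID1 and ID3, dominant-negative partners of basic helix-loop-helix factors, fell by 0.99 and 0.82. SNAI1, a repressor of epithelial genes, rose by 1.11 and BAMBI, a pseudoreceptor that blocks TGF-beta signalling, by 0.88. CCN2 (CTGF), PMEPA1 and ID2 were not called. Extracellular matrix genes had a median of -0.14 with 1 of 32 probes called, the matrix glycoprotein THBS1 (change -0.59, adjusted p = 0.0345). Actin and SRF target genes had a median of -0.10 with 3 of 26 called lower. These 3 probes, for FLNA, ACTG2 and PDLIM5, had control levels of 7.00, 7.57 and 6.75 and are annotated to other transcripts than the second probe of each gene, which did not pass the test (adjusted p = 0.319, 0.591 and 0.776).

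Most of the remaining lists had medians near that of all catalog probes. Ribosomal proteins had a median of 0.09 with 1 of 78 probes called, and this RPS29 probe (change 0.55, adjusted p = 0.044) was not matched by the other probe of the gene (adjusted p = 0.848). Respiratory chain and proteasome subunits had medians of 0.14 and 0.09 with none of 55 and 25 probes called (in the fit of the 6 arrays 3 respiratory chain probes were higher and 1 proteasome probe was lower). Lists of these sizes would hold few calls at the shares of all tested catalog probes. In the hypoxia and glycolysis list ANKRD37, a small ankyrin repeat protein induced by hypoxia, rose by 1.86, and in the circadian list BHLHE40, a repressor of the clock, by 1.79. The splicing list held 2 higher probes, for the kinase CLK1 (1.21) and the splicing regulator TRA2B (0.86), among 29. MAP1LC3B, an autophagosome protein, rose by 0.60 and HERPUD1, of the unfolded protein response, by 0.60, while CREB3L2, a membrane-bound factor of the same list, fell by 0.45. The inflammatory and growth signals lay higher, with a median of 0.33 and 2 of 14 probes called (6 in the fit of the 6 arrays). The chemokine CXCL2 rose by 1.94 over 2 measured control arrays, of which 1 was above background. For GDNF, a neurotrophic factor, 1 probe rose by 1.32, while the other probes of the gene did not pass the test (adjusted p = 0.222 and 0.435), nor did the mean of its probes (adjusted p = 0.0681). A probe for HSD17B7, an enzyme of cholesterol synthesis, was at least 1.56-fold higher, but the other probe of the gene was not called (adjusted p = 0.937). IL6 and MT2A were on the array but did not pass the filter on dim probes.

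**Figure D3:**
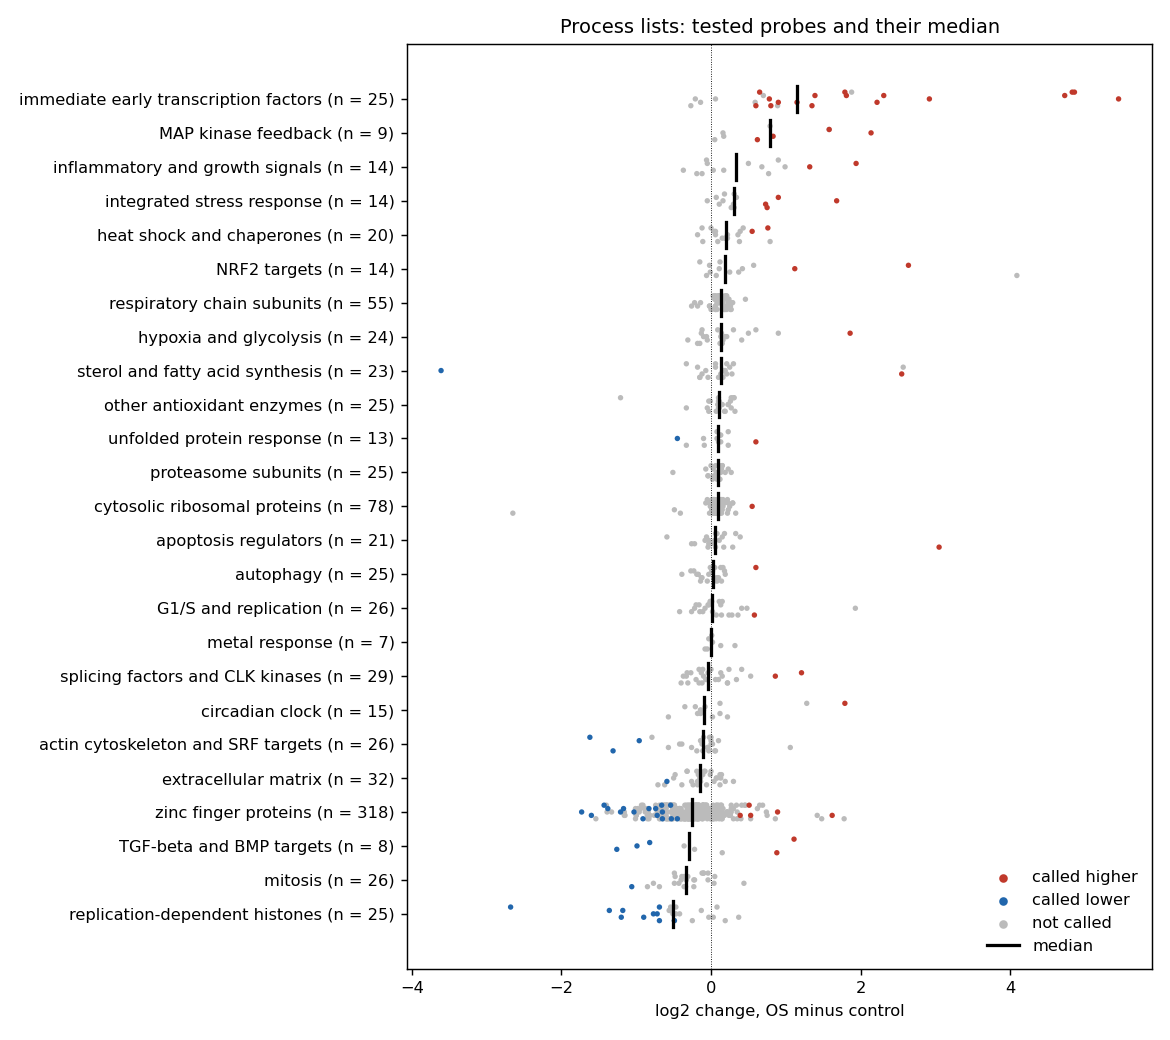
log2 change between OS and control in total RNA for every tested probe of 25 process lists (points, red called higher, blue called lower, grey not called) with the list median (black line), ordered by the median. Immediate early factors (1.15) and MAP kinase feedback (0.79) lie at the top and replication-dependent histones (-0.51) at the bottom, while most lists lie close to 0.

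The length of a gene went with the direction of its change. Lengths from RefSeq (start to end of the gene, introns included) were found for 89.3% of the tested probes, 81.1% of the higher probes and 89.2% of the lower probes. The median length was 12.3 kb for higher, 94.2 kb for lower and 29.2 kb for all tested probes. When the probes were divided into 5 groups of nearly equal number by gene length, the share called higher fell from 5.9% in the group of shortest genes (up to 8.61 kb) over 3.68%, 2.84% and 1.53% to 0.526% in the longest (95 kb and above). The share called lower was 1.69%, 0.894%, 1.21%, 2.79% and 6.42% in the same order, so that 122 of the lower probes came from the group of longest genes. The median change fell in every step, from 0.13 over 0.08, 0.01 and -0.09 to -0.22, and each slide on its own gave this order. The median control level of the groups was between 8.78 and 9.41. This property was examined after the names of the lower genes had been seen, and it is given as a description. Integrity of the RNA and the position of each probe within its transcript were not analysed here, and their part in it was not tested.

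Long genes that fell include those of large scaffold proteins, and the examples were picked here after their values were seen. NAV3, a neuron navigator protein of 641 kb gene length, went from 11.05 ± 0.06 (SD, n = 3) to 10.22 ± 0.08 (SD, n = 3). UTRN, the utrophin gene of 568 kb, went from 11.16 ± 0.05 to 10.31 ± 0.06 (SD, n = 3 each), and SYNE1, the nesprin gene of 516 kb, from 11.94 ± 0.04 to 11.05 ± 0.07 on 1 of its 4 probes, of which 2 were called. These decreases were between 0.83 and 0.89 in size and well outside the spread of the replicates. Other long genes had larger decreases at lower control levels. RIMS2 (755 kb) and the nesprin gene SYNE2, at 6.55 and 6.73 in control, fell by 1.32 and 1.28, although a second SYNE2 probe did not pass the test (adjusted p = 0.619). SNX29 (598 kb) fell by 1.77 on a probe for an Ensembl transcript and was at least 2.03-fold lower on another. Its coding RefSeq probe gave -0.15 and was not called. RPTOR, the mTORC1 subunit raptor, fell by 0.50. At the other end stand short non-coding transcripts such as the snoRNA host SNHG9, which rose by 0.49, and the snoRNA SNORD116-19, which rose by 0.93. With labelling from an oligo-dT primer, whether the latter signal came from the snoRNA itself was not tested.

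**Figure D4:**
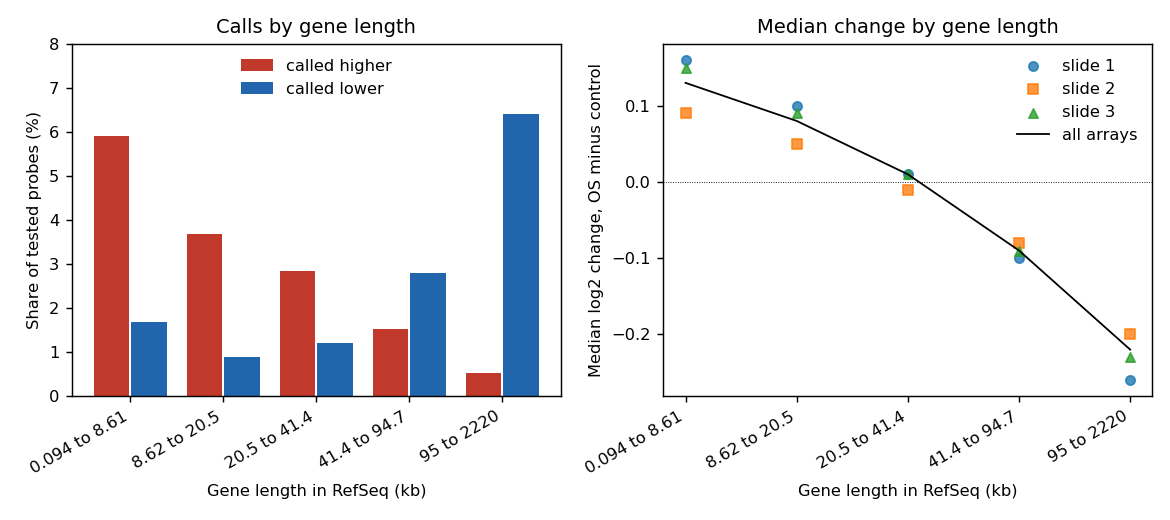
Share of tested catalog probes called higher (red bars) and lower (blue bars) in percent, left, and median log2 change between OS and control, right, for 5 groups of the probes by gene length in RefSeq (x axis, kb, 1898 to 1902 probes each). On the right, symbols give the 3 slides and the line gives all arrays, which fall from 0.13 for the shortest to -0.22 for the longest genes.

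Probes whose array identifier is an Ensembl transcript were called more often than probes for coding RefSeq mRNAs, in both directions. They are called Ensembl probes here, and whether each transcript is an alternative form of its gene was not examined. Of 525 tested Ensembl probes, 38 (7.24%) were lower and 26 (4.95%) higher. Of 8488 probes annotated to a coding RefSeq mRNA, 192 (2.26%) were lower and 233 (2.75%) higher. No test of this difference was made. GPAM is a mitochondrial acyltransferase of triglyceride synthesis. Its Ensembl probe (chr10:113913690-113913749, GRCh37) read 6.94, 6.88 and 7.37 in control and 3.11, 4.09 and 3.17 in OS, where it was above background on no array, so that the level was at least 4.37-fold lower. The RefSeq probe of GPAM gave -0.33 (adjusted p = 0.963, and 0.0312 in the fit of the 6 arrays). For SF1, a branch point binding splicing factor, the Ensembl probe read 8.24, 8.35 and 8.30 in control and 6.04, 6.56 and 5.84 in OS (change -2.15, SE 0.16), whereas the RefSeq probe gave -0.03 (adjusted p = 1). The 2 probes of SF1 thus differed within the same arrays.

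Such pairs were found for other genes too. A coding RefSeq probe was also tested for 19 of the genes with such a lower Ensembl probe. Their 20 Ensembl probes had a median change of -1.76, and the 25 RefSeq probes of the same genes -0.24, with 2 of the 25 called lower and none higher. Of the Ensembl probes, 8 were above background on no OS array, and with these at their bounds the median was -1.42. Both called RefSeq probes belong to AAK1, a kinase of clathrin adaptors. In the fit of the 6 arrays 10 of the 25 RefSeq probes and all 20 Ensembl probes were called lower. POGZ, PTPRF and ATXN2 had called changes of -1.76, -1.75 and -1.75 on their Ensembl probes, but changes that did not pass the test on the RefSeq probes (adjusted p = 0.588, 0.185 and 0.0631). In the fit of the 6 arrays these RefSeq probes had adjusted p = 0.215, 0.00952 and 0.00311. IKBKB, a kinase that activates NF-kappaB, and DNM1L, the dynamin of mitochondrial fission, were at least 1.74-fold and 1.89-fold lower on Ensembl probes above background on no OS array, and gave log2 changes of -0.18 and -0.15 on the RefSeq probes. Since the Ensembl probes were chosen because they were called lower, the gap between the 2 kinds of probe is a description. SNAPC3 and RNGTT, which encode a subunit of the snRNA activating complex and the mRNA capping enzyme, were at least 3.64-fold and 3.46-fold lower on Ensembl probes.

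**Figure D5:**
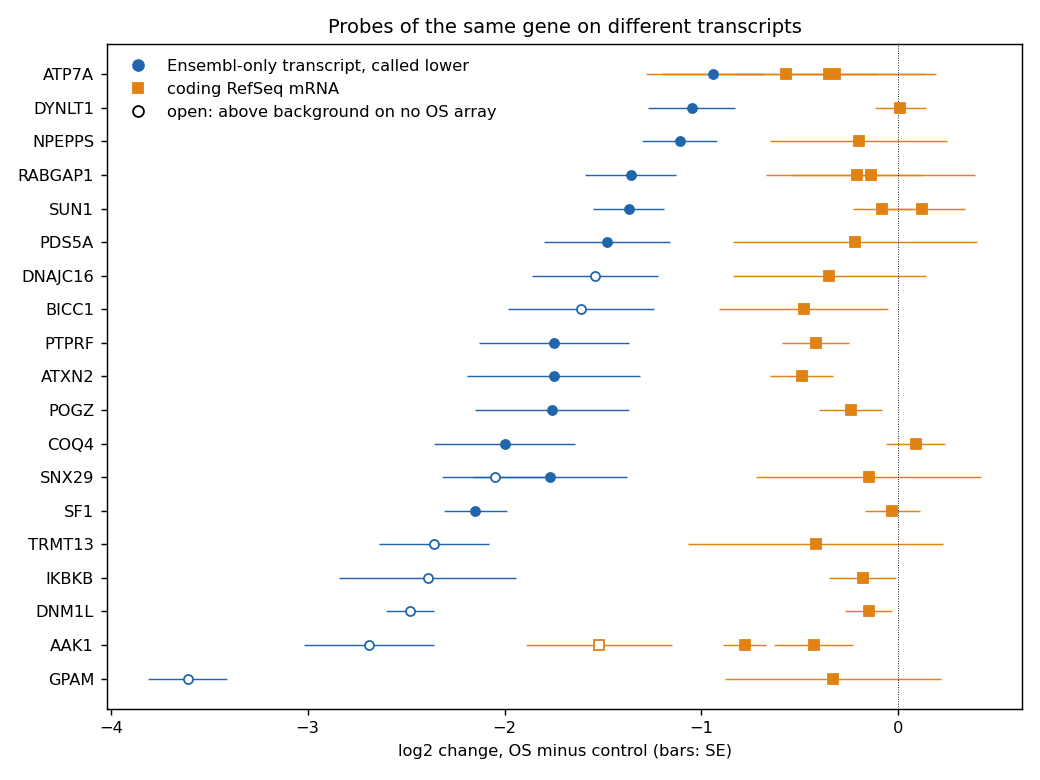
log2 change between OS and control (x axis, bars give the SE from the fit) for the 19 genes with an Ensembl probe called lower (blue circles, labelled Ensembl-only) and at least 1 tested probe on a coding RefSeq mRNA (orange squares). Open symbols are probes above background on no OS array, whose value is not an exact change. As plotted, the RefSeq probes lie nearer to 0 in all 19 genes.

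Some further decreases concern non-coding transcripts and pseudogenes. CIRBP, the cold-inducible RNA-binding protein, fell by 2.14 on a probe annotated to a non-coding transcript (SE 0.55, adjusted p = 0.019), from 9.06, 8.92 and 9.15 to 6.94, 6.77 and 7.00. HERC2P4 and SDHAP1 are pseudogenes with close copies in the genome, so that the source of their signal is uncertain. HERC2P4 was at least 4.71-fold lower, and SDHAP1 fell by 1.62. LRP5L, FAM106C, MGC12488 and FLJ25917 had changes between -1.49 and -2.08, with no overlap between the groups. The LRP5L probe is annotated to a coding RefSeq mRNA and passed the test narrowly (adjusted p = 0.0457, limma). Second probes of LRP5L and FAM106C gave -0.67 and -1.32 and did not pass it (adjusted p = 0.108 and 0.187).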

How the data were processed

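Spot intensity was deposited by the authors as Feature Extraction 10.7.3.1 files, in which the processed signal already has its background subtracted. The array was designed for GRCh37. The authors also deposited log2 values per probe, which served as an alternative. The submitters' processing notes name Partek. Here log2 intensities were quantile-normalized separately for catalog and long non-coding probes, after the damaged spots of control replicate 1 were set to missing and 178 probes with an outlier mark were left out. limma 3.58.1 (R 4.3.3) fitted a linear model to all 24 arrays, and p-values were adjusted by Benjamini-Hochberg over both kinds of probe. The study's methods mention the removal of anomalous replicates without naming them, and all arrays were kept here. The number of arrays limits the precision. The design states 3 independent RNA preparations.

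A lower bound compares the brighter mean with the weakest signal well above background on each array. Current symbols were matched by RefSeq accession, name or synonym for 14409 of 17535 catalog probes. Genes named are the 12 most changed per direction that were measured on every array, the 4 largest bounds per direction, up to 3 per direction and list with the lowest adjusted p, and 30 set names, of which 8 were on the array and 6 were tested. Others were chosen after their values were seen, and some items are not reported here. The members and lists were chosen with earlier results of these data known. In total RNA, replicate numbers coincide with slides. Deviations from the group means correlated at 0.260, 0.026 and 0.175 between same-numbered control and OS arrays. Between differently numbered arrays the correlations ran from -0.255 to 0.017. The main fit did not take the numbers as pairs, and blocks for replicate number and slide served as alternatives.

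Alternatives covered the damaged region, normalization, background correction, filter, blocks for replicate number and slide, arrays in the fit, left-out arrays and thresholds. Figures were drawn with matplotlib.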

Additional observations from a re-analysis of the deposited data

How the results depend on the processing

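The named probes, 84 in number, kept their direction under the alternatives that gave them a value, except MT1X and an MDM2 probe, both uncalled, on values that were not normalized. In 190 results of named probes over all alternatives the call was lost, 34 of them when arrays were scaled to the 75th percentile and 20 when no normalization was applied. RPS29, BAG3, HSPB8 and ZNF596 lost their call under 12 or more of the alternatives, and the cause was not tested. Of 339 higher and 277 lower probes (616), the fit of the 6 total RNA arrays called 336 and 275 too, within 1134 higher and 1548 lower probes in all, and with the replicate block 946 and 1340. Leaving out the third array of the low pool upon OS, which deviates from its group, gave 652 and 729. The replicate block in the fit of all arrays gave 355 higher and 280 lower probes. Scaling to the 75th percentile gave 243 higher and 152 lower, no normalization 227 and 976, normexp with quantile normalization over all probes 318 and 394, and a stricter filter on dim probes 175 and 182. The rule of the methods (unadjusted p under 0.1, at least 1.5-fold, no filter) gave 807 and 732. Leaving out 1 replicate at a time gave 239 or more higher and 151 to 207 lower probes, with the lowest numbers without control replicate 3 and without OS replicate 1. The difference in median change between the groups of longest and shortest genes was -0.36, and -0.28 to -0.40 under the alternatives. After leaving out the small low-signal area of control replicate 3, an alternative chosen after seeing the data, 337 were higher and 268 lower, and ACTG2, THBS1 and CREB3L2 lost their calls (adjusted p = 0.133, 0.0923 and 0.0508, limma). Weak signal limits folds of genes at background to lower bounds.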

Other observations

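Some of the 120 higher probes above background on no control array stand for genes known from tissues other than lung fibroblasts. Such probes passed the filter only through the OS arrays, and how many of them are of this kind was not counted. The examples below were picked after their values were seen and no test of a theme was made. DNAI2, a dynein subunit of motile cilia, read 7.50, 7.95 and 7.21 in OS and was at least 5.38-fold higher. PLK5, a polo-like kinase known from brain, read 8.32, 8.13 and 8.32 and was at least 8.76-fold higher, and C9, a component of the complement membrane attack complex made in liver, read 7.59, 7.77 and 6.78 and was at least 4.77-fold higher. ALB, which encodes serum albumin, was at least 1.92-fold higher at a weaker OS level of 6.03, 6.35 and 5.82. PYGM, the muscle glycogen phosphorylase, and AOC3, an amine oxidase of vessels and fat, were at least 5.16-fold and 9.17-fold higher. SYCE3, a protein of the meiotic synaptonemal complex, read 4.97, 5.05 and 4.92 in control and 7.52, 7.88 and 7.76 in OS and was at least 6.04-fold higher.

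Of 11 tested probes for genes named SNHG, non-coding hosts of small nucleolar RNAs that were looked up after their values were seen, 3 were higher and none was lower. Among all tested catalog probes 3.19% were higher and 2.60% lower. SNHG1, SNHG7 and SNHG9 rose by 0.52, 0.65 and 0.49 on the log2 scale, each with no overlap between the groups, while a second SNHG7 probe did not pass the test (adjusted p = 0.869). Of 541 tested catalog probes annotated to a non-coding RefSeq RNA, 33 (6.1%) were higher and 17 (3.14%) lower, against 2.75% and 2.26% of the probes for coding RefSeq mRNAs.

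EDN1, the vasoconstrictor peptide endothelin 1, read 10.57, 10.23 and 10.34 in control and 9.01, 9.02 and 9.08 in OS, a change of -1.34 (SE 0.22, adjusted p = 0.000371, limma). DKK1, a secreted WNT inhibitor, fell by 0.56 (adjusted p = 0.0477).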
